A study of Mus musculus with 13 samples.

Results

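The regions described here are 470 very short cassette exons of the mouse genome, 3 to 15 nt long, whose inclusion was measured in the developing cerebellum. They are the exon entries of the splicing table with a length of 3 to 15 nt that had at least 10 reads in at least 4 of the 13 libraries. The table listed 525 exons of that length among 54141 exon entries and 283765 splicing events in all, and 55 failed the read rule. The 470 microexons lay in 427 genes, 37 of which held 2 or more, and 417 of them had at least 10 reads in all 13 libraries. No measured inclusion value was used to choose them.

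Microexons are exons too short to be recognised in the usual way, since the proteins that define an exon's edges have little room to bind. Many are included mainly in neurons, where the serine/arginine repetitive matrix protein Srrm4 (nSR100) promotes their use and the polypyrimidine tract-binding protein Ptbp1 can repress them. Because most have a length that keeps the reading frame, including one typically adds a few amino acids to a protein, often at a surface that meets other proteins in the cytoskeleton, at synapses or in vesicle traffic. Sam68, the product of Khdrbs1, is a STAR family RNA-binding protein that controls neuronal splicing.

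The RNA was total RNA from whole cerebella, the mice were C57BL/6 in background, and there were 5 groups. Wild-type mice gave 2 libraries at postnatal day 1 (P1), 2 at P10 and 3 at P30. Mice labelled as Sam68 knockout gave 3 libraries at P1 and 3 at P10, and no knockout group at P30 was analysed here. The labels name neither the allele nor the number of animals behind a library, so p-values measure the spread between these libraries, which may be technical. Inclusion is given as PSI, the percentage of informative reads that support the exon, and the microexons drew 133612 to 219390 such reads per library, with a median of 143 reads per exon and library.

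Khdrbs1 was checked first against the labels. It stood at 56.5 and 74.4 cRPKM (reads scaled by library size and by mappable transcript length) in wild-type P1, and at 61.2 and 56.2 in wild-type P10. In the knockout it was at 5.42, 4.22 and 8.50 at P1 and at 2.06, 1.28 and 3.59 at P10, below every wild-type library. The 7 cerebellar genes checked (En1, En2, Zic1, Zic2, Pax6, Pcp2 and Gabra6) were detected in every group, with a summed level of 271 to 515 cRPKM in wild-type P1 and 1289 to 1422 in wild-type P30. In whole tissue, fewer cells of a type and less RNA per cell cannot be told apart.

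The sequences of the microexons on which the age comparison turns are shown first. Each exon is in capitals, 5′ to 3′ on the gene's strand, with the 15 nt of the neighbouring exons on either side in lower case, as spliced in a GENCODE M21 (GRCm38) transcript that has an exon of the same length between introns of the same lengths. All shown lie in coding sequence. These microexons were included more at P30 than at P1 in wild type, and range from 3 nt in Tbc1d4 and Clasp2 to 15 nt:
Kcnma1 9 nt: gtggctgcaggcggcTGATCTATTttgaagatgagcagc
Ryr1 15 nt: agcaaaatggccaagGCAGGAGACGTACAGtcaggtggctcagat
Tbc1d4 3 nt: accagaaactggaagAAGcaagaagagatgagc
Arhgef10l 15 nt: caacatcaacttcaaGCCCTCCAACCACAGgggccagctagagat
Macf1 12 nt: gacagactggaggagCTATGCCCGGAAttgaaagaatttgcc
Celsr3 15 nt: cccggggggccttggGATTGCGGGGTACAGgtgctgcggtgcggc
Clasp2 3 nt: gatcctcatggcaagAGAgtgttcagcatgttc
Robo2 12 nt: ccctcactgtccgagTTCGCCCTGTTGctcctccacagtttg
Lphn1 15 nt: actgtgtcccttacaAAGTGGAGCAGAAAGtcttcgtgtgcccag
Cadps 12 nt: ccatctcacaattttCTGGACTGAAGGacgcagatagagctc

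These were included less at P30 than at P1:
Kcnma1 12 nt: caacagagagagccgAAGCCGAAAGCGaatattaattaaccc
Kif3a 9 nt: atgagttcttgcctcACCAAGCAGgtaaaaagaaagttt
Atp2c1 12 nt: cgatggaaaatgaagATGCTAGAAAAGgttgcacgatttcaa
Nav1 9 nt: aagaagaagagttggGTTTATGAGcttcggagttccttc

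This exon had a low inclusion at P10 in both genotypes:
6330403A02Rik 9 nt: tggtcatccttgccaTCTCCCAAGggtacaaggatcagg

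A matching annotated exon was found for 193 of the 470 microexons (41.1%), 182 of them in coding sequence. The split by mean PSI leaves out chromosome 18, whose matches are included in the count of 193. In that split a match was found for 7 of 178 microexons with a mean PSI below 5 (3.9%), 137 of 228 between 5 and 95 (60.1%) and 43 of 51 above 95 (84.3%). Among 12 matched exons of exactly 3 nt, 6 read AAG. Since fewer than 80% matched, no sequence property was computed over the whole set.

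In most of these genes the microexon was either almost always skipped or variably used. Over all libraries, 182 of the 470 had a mean PSI below 5, 233 lay between 5 and 95, and 55 were above 95. The values of 41 were listed at 0 in every library with enough reads, and 8 were at 100. The median PSI of all microexons was 13.7 in wild-type P1, 12.1 in knockout P1, 17.3 in wild-type P10, 15.1 in knockout P10 and 22.3 in wild-type P30. Medians over the microexons with enough reads in a single library ran from 11.7 to 14.8 in wild-type P1 and from 23.0 to 24.5 in wild-type P30, so the groups did not overlap in this median. Exons of 16 to 27 nt (n = 576) had higher medians, 67.5 in wild-type P1 and 80.6 in wild-type P30, and exons of 28 to 300 nt (n = 44007) had 97.9 and 98.7.

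Inclusion differed with length. A length that is a multiple of 3, which keeps the reading frame, was held by 374 of the 470 (79.6%), compared with 68.4% of exons of 16 to 27 nt and 40.7% of those of 28 to 300 nt. The frame-keeping microexons had a median PSI of 25.6 in wild-type P1, 26.8 in wild-type P10 and 39.2 in wild-type P30. The other 96 had medians of 1.44, 1.59 and 1.90. Exons of exactly 3 nt (n = 82) were mostly skipped, with medians of 0.80 in wild-type P1 and 1.53 in wild-type P30, and 53 had a mean PSI below 5. Of these 82, 12 matched an annotated exon. The part of unannotated entries in the differences by length was not tested. The highest group medians by length were those of 12 nt exons (n = 94), 58.2 in wild-type P1 and 72.3 in wild-type P30. At the length limit, 87 exons of 15 nt had medians of 21.7, 25 and 42.9 in wild-type P1, P10 and P30, and the 13 exons of 16 nt just outside had 46.2, 38.7 and 48.3.

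Change with age in wild type was tested with limma on the log2 odds of inclusion, fitted over all events of the table. An event needed a mean PSI of 5 to 95, and it was called at an adjusted p below 0.05 together with a difference of at least 10 points. Of the 470 microexons, 229 could be tested in at least 1 comparison. A microexon that is high in only 1 group can pass this filter through that group alone, so shares of the tested set do not stand for all 470.

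Between P1 and P30, 70 of 217 tested microexons in 67 genes were called, 60 of them higher and 10 lower at P30. This was 32.3% of those tested, beside 9.27% of all tested events, 32.7% of exons of 16 to 27 nt and 13.6% of exons of 28 to 300 nt. The higher calls made up 27.6%, beside 5.68% of all events, and the lower calls 4.61%, beside 3.59%. The median difference over tested microexons was 6.95 points, beside 0.90 over all events. Among the calls the median rise was 31.2 points (11.9 to 99.4), and 22 rose by 40 points or more. The calls held under all alternatives tried for 36 of the 70 and none changed direction, while the count was 44 without wild-type P1 library 8. P1 to P30 calls named below held under every alternative unless said otherwise.

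**Figure D1:**
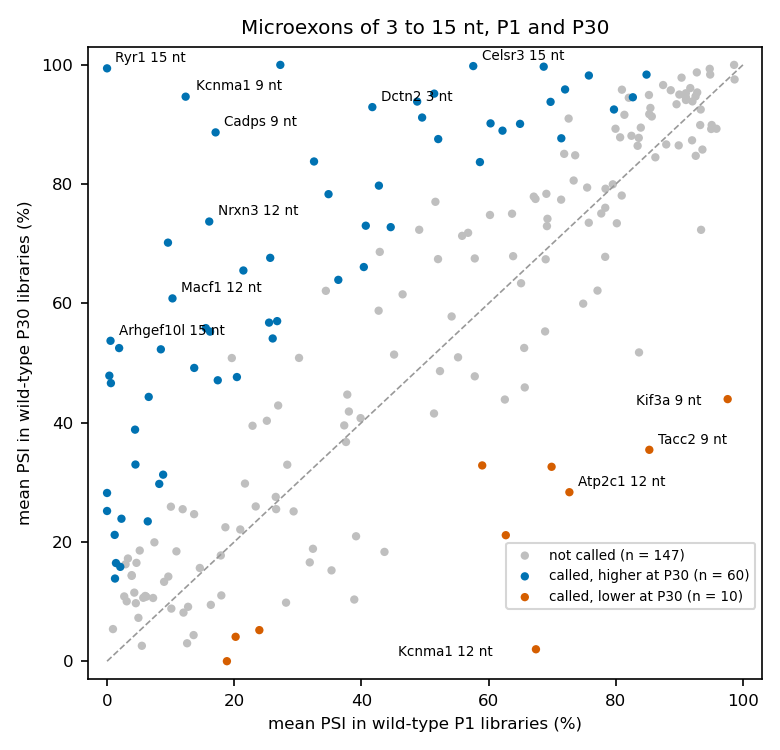
Mean PSI of the 217 tested microexons in wild-type P1 (x axis, %) against wild-type P30 (y axis, %), 1 point per microexon, with the dashed line at equal values. Blue points are the 60 called higher at P30 and orange points the 10 called lower, and most coloured points lie above the line.

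Genes of ion channels and calcium handling held the largest shifts. Kcnma1 encodes the BK channel, a potassium channel opened by calcium and voltage, and 2 of its microexons moved in opposite directions. Its 9 nt exon (mm9 chr14:24251455-24251463, minus strand, exon 19 of 30 in the matched transcript) had PSI values of 0 and 24.7 in wild-type P1, 79.7 and 80.0 in P10, and 95.6, 95.7 and 92.8 in P30. All P30 libraries were above all P10 libraries, and those above both P1 libraries. The rise from P1 to P30 was 82.3 points (limma adjusted p = 0.000907).

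In Kcnma1 the 12 nt exon (chr14:24268422-24268433, minus strand, exon 17 of 30) went the other way. It was at 73.1 and 61.8 in wild-type P1, 22.2 and 23.8 in P10, and 1.24, 2.64 and 2.12 in P30. The 3 ages did not overlap, and inclusion fell by 65.5 points (adjusted p = 2.08e-06), the largest fall among the 10 lower calls.

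The ryanodine receptor gene Ryr1, whose product releases calcium from internal stores, had the largest rise of all. Its 15 nt exon (chr7:29841253-29841267, minus strand) had no inclusion read in either wild-type P1 library, where 25 and 21 reads allow a PSI of up to 12 and 14.3. It was at 81.7 and 94.8 in P10 and at 98.2, 100 and 100 in P30 (99.4 points, adjusted p = 3.49e-05). The reads were few, 10 in the shallowest library.

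Further channel and calcium genes were called. The 6 nt exon of Cacna1a, the P/Q-type calcium channel of Purkinje cells, was at 17.6 and 14.8 in P1, 27.2 and 26.1 in P10, and 50.7, 58.9 and 56.2 in P30 (adjusted p = 0.000853). Atp2c1, a calcium and manganese pump of the Golgi, fell from 78.3 and 67.1 to 29.98, 26.5 and 28.6 in its 12 nt exon (adjusted p = 0.000964). A 12 nt exon of the chloride channel gene Ano1 rose by 72.8 points, but on as few as 4 reads in a library, and without P1 library 8 its adjusted p was 0.0893.

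Genes of transmitter release and of the synapse were also among the calls. Cadps (CAPS1), which primes dense-core vesicles for release, had 2 microexons that both rose. The 9 nt exon (chr14:13304912-13304920, minus strand) was at 21.7 and 12.4 in P1, 24.2 and 15.2 in P10, and 85.7, 91.8 and 88.5 in P30. The P1 and P10 libraries overlapped and all P30 libraries were far above them, with a rise of 71.6 points from P1 (adjusted p = 1.55e-05) and 69.0 from P10 (adjusted p = 9.39e-05). The 12 nt exon of Cadps was at 38.8 and 42.6 in P1, 39.2 and 35.7 in P10, and 73.2, 70.0 and 75.9 in P30 (32.3 points, adjusted p = 0.00164). In its paralogue Cadps2 a 15 nt exon fell, from 20.4 and 20.1 to 4.38, 2.71 and 5.18 (adjusted p = 0.00785), a call lost without either P1 library.

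Nrxn3 encodes a presynaptic adhesion molecule, and its 12 nt exon (chr12:90091545-90091556, plus strand) was at 21.8 and 10.3 in P1, 32.1 and 20.6 in P10, and 74.4, 70.2 and 76.6 in P30 (57.7 points, adjusted p = 0.000733). Lphn1 (Adgrl1), a latrophilin adhesion receptor, had a 15 nt exon at 44.5 and 41.0 in P1, 50.4 and 48.4 in P10, and 80.7, 79.1 and 79.5 in P30 (adjusted p = 0.000219).

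Robo2, an axon guidance receptor for Slit proteins, rose in its 12 nt exon from 48.4 and 54.5 in P1 to 80.3 and 80.2 in P10 and 97.3, 89.8 and 98.4 in P30 (adjusted p = 0.000975). The 15 nt exon of Celsr3, an atypical cadherin of planar polarity, was at 64.5 and 50.7 in P1, 59.0 and 55.3 in P10, and 100, 99.4 and 100 in P30 (adjusted p = 2.07e-05). In the related receptor gene Robo1 the 9 nt exon had a mean of 32.4 in P1 and 18.9 in P30 and was not called (adjusted p = 0.349). Reln, the secreted protein that guides neuron placement, was already at 84.4 and 85.2 in P1 in its 6 nt exon and reached 98.4, 98.9 and 97.8 in P30 (adjusted p = 0.00108).

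Genes of the cytoskeleton and its motors changed in both directions. Dctn2, the dynamitin subunit of dynactin, carries a 3 nt exon (chr10:126709498-126709500, plus strand) read at least 1083 times per library. It was at 42.9 and 40.6 in P1, 74.0 and 64.9 in P10, and 93.9, 92.4 and 92.4 in P30, without overlap between ages (51.2 points, adjusted p = 1.55e-05). Kif3a, a kinesin-2 motor subunit, went down in its 9 nt exon (chr11:53404219-53404227, plus strand, exon 11 of 19). It was at 97.4 and 97.8 in P1, 80.3 and 73.7 in P10, and 38.3, 46.0 and 47.6 in P30 (adjusted p = 1.53e-05), again without overlap.

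Microtubule-binding proteins followed both patterns. The 12 nt exon of Macf1, a linker of actin and microtubules, rose from 12.2 and 8.39 in P1 to 22.9 and 24.8 in P10 and 62.8, 58.6 and 61.1 in P30 (adjusted p = 3.94e-05). The 3 nt exon of Clasp2, which tracks growing microtubule ends, rose from 15.3 and 27.5 to 60.8, 69.0 and 66.8 (adjusted p = 0.00122). Tacc2, a centrosomal coiled-coil protein, fell in its 9 nt exon from 88.2 and 82.4 to 32.8, 32.1 and 41.4 (adjusted p = 0.000103), and Nav1, a neuron navigator, from 64.8 and 60.6 to 27.5, 14.98 and 20.9 in its 9 nt exon (adjusted p = 0.00311). The homologous gene Nav2 carries a 9 nt exon that rose by 31.3 points (adjusted p = 0.0141), a call lost without P1 library 9.

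Ank2, the membrane-skeleton adaptor ankyrin-B, had P10 values close to those of P30, with 36.4 and 36.4 in P1, 67.4 and 60.8 in P10, and 62.5, 67.3 and 62.1 in P30 (adjusted p = 0.00475). The step from P1 to P10 alone was not called in wild type (adjusted p = 0.052).

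Arhgef10l, a guanine nucleotide exchange factor, had a 15 nt exon (chr4:140124671-140124685, minus strand, exon 16 of 28) at 1.09 and 0 in P1, 11.5 and 10.4 in P10, and 53.3, 54.0 and 53.9 in P30 (adjusted p = 3.02e-05). Tbc1d4, a Rab GTPase-activating protein of glucose transporter traffic, had a 3 nt exon at 5.73 and 13.4 in P1 and at 67.3, 73.6 and 69.6 in P30 (adjusted p = 0.0022). Git2, an Arf GTPase-activating scaffold, rose from 67.9 and 52.8 to 88.4, 91.6 and 90.7 (adjusted p = 0.00199). Cyth3, an Arf exchange factor, fell in its 3 nt exon from 26.9 and 21.0 to 3.85, 5.76 and 6.02 (adjusted p = 0.00269). Cltc, the clathrin heavy chain, had a 3 nt exon at 1.61 and 1.19 in P1 and at 19.0, 16.3 and 14.2 in P30 (adjusted p = 0.000849).

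**Figure D2:**
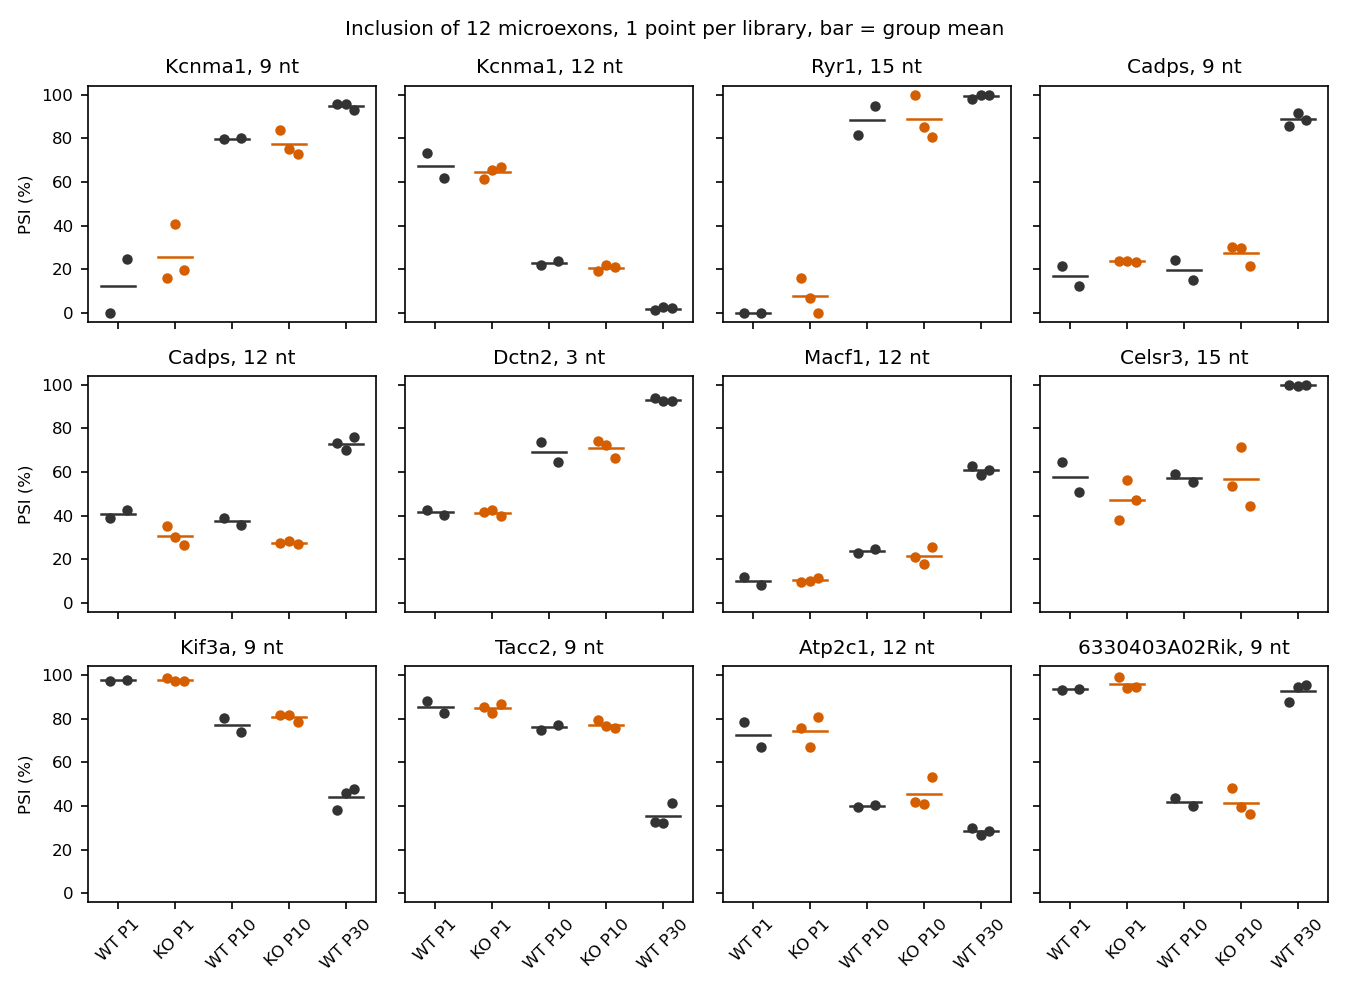
PSI (y axis, %) of 12 microexons in each library, grouped along the x axis by genotype and age, with wild type in black, Sam68 knockout in orange and bars at the group means. Cadps 9 nt, Celsr3 and Macf1 are highest at P30, Kcnma1 12 nt, Kif3a, Tacc2 and Atp2c1 go down with age and 6330403A02Rik is low at P10 only.

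The timing of these changes was uneven. Of the 70 microexons called between P1 and P30, the P10 mean lay nearer the P1 mean for 44 (40 of the rises and 4 of the falls) and nearer the P30 mean for 26. A median of 36% of the P1 to P30 difference was present at P10, and for 9 the P10 mean lay outside the range of the other two. Between P10 and P30, 34 of 218 microexons were called, 30 higher and 4 lower (15.6%, beside 2.51% of all events, of which 1.74% were higher and 0.77% lower). Between P1 and P10, 6 of 220 were called, 3 in each direction (2.73%, beside 0.418% of all events, of which 0.217% were higher and 0.201% lower). Among exons of 16 to 27 nt, 16% were called between P10 and P30 (13.8% higher) and 2.19% between P1 and P10. An unadjusted limma p below 0.05 was held by 66 of 220 microexons from P1 to P10 (beside 4188 of 36379 events). From P10 to P30 it was held by 95 of 218 (beside 5542 of 37271 events). The first step compares 2 with 2 libraries and the second 2 with 3, so the counts of calls are not equally sensitive. When any single library was left out, the P10 to P30 count was 12 to 22, lowest without P10 library 6, and the P1 to P10 count was 0 to 5, lowest without P10 library 6. None of the 6 calls between P1 and P10 held under every alternative, and 9 of the 34 did.

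Some microexons were lowest at P10. The 9 nt exon of 6330403A02Rik (annotated as Stum in GENCODE) was at 93.0 and 93.7 in wild-type P1, 43.6 and 39.99 in P10, and 87.6, 94.4 and 95.6 in P30. Both steps were called, a fall of 51.6 points (adjusted p = 0.0244) and a rise of 50.7 points (adjusted p = 0.00736), though both were lost when either P10 library was left out and the first also without either P1 library, without the filter on mean PSI, and with only the groups compared in the fit. The knockout went from 99.1, 94.1 and 94.6 at P1 to 48.1, 39.6 and 36.5 at P10, a fall of 54.5 points (adjusted p = 0.00124) that held under every alternative. The 15 nt exon of Nfasc, a neural adhesion molecule of the axon initial segment and node, was at 80.3 and 76.4 in wild-type P1, 54.7 and 54.3 in P10, and 69.3, 68.3 and 65.8 in P30. Its fall of 23.8 points to P10 missed the threshold in wild type (adjusted p = 0.0652). In the knockout it fell by 31.2 points (adjusted p = 0.0029), a call lost when only the knockout groups were fitted.

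On the way from P10 to P30, several further rises started from a level at P10 below that at P1. The 6 nt exon of Vps8, a subunit of an endosomal tethering complex, was at 75.7 and 67.2 in P1, 50.5 and 54.2 in P10, and 90.1, 88.6 and 84.5 in P30, a rise from P10 of 35.3 points (adjusted p = 0.00286) that held under every alternative. Incenp, a subunit of the chromosomal passenger complex, had a 12 nt exon that was at 42.9 and 42.5 in P1, 25.3 and 25.7 in P10, and 65.7, 58.4 and 52.2 in P30 (adjusted p = 0.00506), a call lost without P10 library 6 or with only the groups compared in the fit. In both genes the P10 libraries lay below all the others. The 11 nt exon of Gulp1, an engulfment adaptor, had its highest mean at P10. It was at 8.87 and 28.8 in P1, 33.8 and 24.2 in P10, and 0 in all 3 P30 libraries (P10 to P30 adjusted p = 0.00204). Its P1 and P10 libraries overlapped. The P1 to P30 difference of Gulp1 was also called (-18.85 points, limma adjusted p = 0.00285), though not when PSI was fitted without the log2 odds. Over the alternatives this difference ran from -28.83 to -8.87 points.

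Further microexons of some genes named above are given here, with their P1 and P30 values or the difference between these ages. Macf1 had 2 further microexons beside its 12 nt exon: the 6 nt exon rose by 25.7 points from P1 to P30 (adjusted p = 0.0117, lost without either P1 library), and the 9 nt exon was at 7.68 and 16.1 in P1 and 21.4, 24.5 and 30.6 in P30 (adjusted p = 0.0635). In Cacna1a the 12 nt exon was at 42.3 and 28.3 in P1 and 18.3, 13.9 and 13.5 in P30, opposite in sign to the 6 nt exon and not called (adjusted p = 0.0592). In Cadps2 the 9 nt exon was at 91.8 and 94.3 in P1 and 99.9, 99.6 and 99.8 in P30, and its mean was too high for the test. Whether exons of 1 gene differed in their change was not tested.

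By length, the P1 to P30 calls were spread over 3 to 15 nt. Among 3 nt exons 20 were tested, with 6 higher and 1 lower, and among 6 nt exons 21, with 9 higher. Among 9 nt exons 48 were tested, with 9 higher and 4 lower, among 12 nt exons 58, with 18 higher and 2 lower, and among 15 nt exons 49, with 12 higher and 1 lower. Lengths that keep the frame had 31.6% of 196 tested exons called, and the other lengths 38.1% of 21.

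Intron length was taken as the distance from a microexon to the nearest listed splice partner on each side. Its median was 1486 nt upstream and 1533 nt downstream, and it was under 100 nt for 12 microexons upstream and 16 downstream. Microexons called between P1 and P30 had medians of 2168 and 1666 nt, those with a mean PSI below 5 had 1324 and 1502 nt, and those above 95 had 833 and 1416 nt.

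Microexons in genes already well studied for them were followed as a list of 69 genes, of which 41 held a microexon here, 59 in all, with 39 tested. Between P1 and P30, 12 of the 39 rose and none fell, with a median difference of 7.23 points, beside 60 of 217 (27.6%) higher and a median of 6.95 points over all tested microexons. Between P10 and P30 7 rose and none fell, between P1 and P10 none was called in wild type, and in the knockout 1 rose and 1 fell. The rises included Itsn1, an endocytic scaffold (29.7 points, adjusted p = 0.019), Rims2, a release-site organiser (25.1 points, adjusted p = 0.0117), and Nrcam, a cell adhesion molecule (21.5 points, adjusted p = 0.00474). These 3 calls were lost without a P1 library. Others were nearly constant: the 15 nt and 12 nt exons of the adhesion molecule L1cam had group means of 98.4 to 99.8, the 12 nt exon of the endocytic GTPase Dnm1 99.45 to 99.99, and the 15 nt exon of the clathrin adaptor Snap91 98.6 to 99.52. The 6 nt exon of Nrcam had no inclusion read in any library, and the shallowest, with 295 reads, allows a PSI of up to 1.02.

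Sam68 knockout left microexon inclusion without a called difference at either age. At P1, 0 of 225 tested microexons were called (beside 0.00268% of all events), 8 had an unadjusted p below 0.05, and the smallest limma adjusted p was 0.603. At P10, 0 of 219 were called (beside 0% of all events), 11 had an unadjusted p below 0.05, and the smallest adjusted p was 0.832. The median size of the difference was 2.86 points at P1 and 2.33 at P10. A fit with the prior variance following the mean reads also called 0 at both ages, and leaving out P1 library 9 gave 1 call at P1. The test whether the knockout effect differed between the ages called 0 of 215 (beside 0% of all events), with 7 at an unadjusted p below 0.05 and a smallest adjusted p of 1.

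These counts do not show that the genotypes were alike. The 95% interval of the knockout difference had a median half-width of 1.07 log2 odds at P1 and 1.04 at P10, about 10.5 and 11.3 points of PSI at the wild-type level. It reached a difference of 10 points or more for 167 of the 225 microexons at P1 and stayed within 10 points for 58. At P10 it reached 10 points for 167 of 219 and stayed within them for 52. For the 9 nt exon of Kif3a at P1 the interval ran from -2.0 to 1.2 points, whereas for the 15 nt exon of Celsr3 it ran from -28.6 to 8.8.

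**Figure D3:**
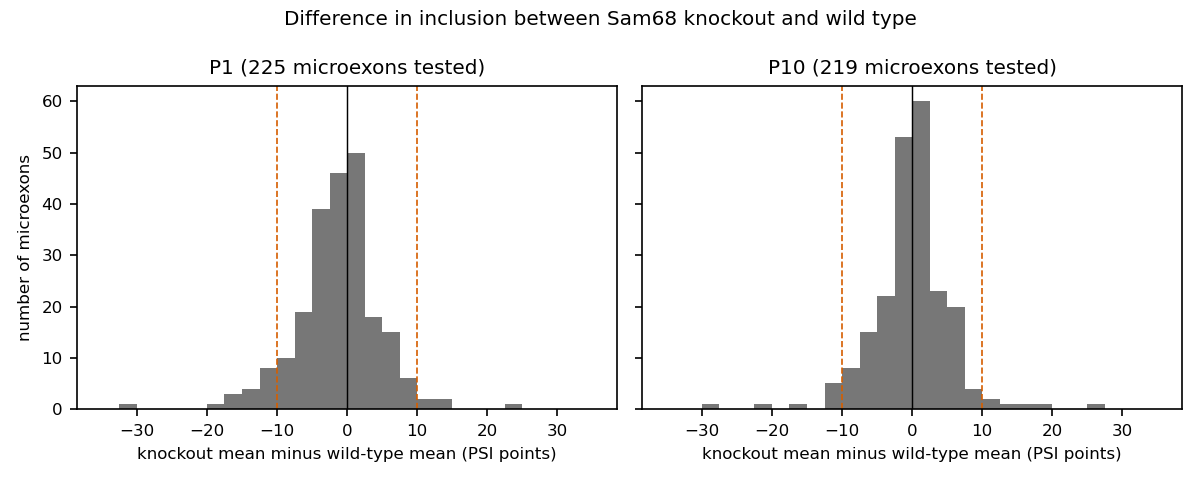
Number of microexons (y axis) by the knockout mean minus the wild-type mean in PSI points (x axis) at P1 (225 tested) and P10 (219 tested), with dashed lines at 10 points either way. The medians lie at -0.64 and 0.13 points, and 22 microexons at P1 and 14 at P10 differ by 10 points or more without passing the test.

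The largest knockout difference at P1 was in Sidt1, a transmembrane protein of the SID-1 family. Its 15 nt exon (chr16:44256080-44256094, minus strand) was at 70.3 and 67.0 in wild type and at 37.8, 29.8 and 45.2 in the knockout, without overlap. The difference was -31.1 points (interval -49.7 to -6.4, unadjusted p = 0.0158, limma adjusted p = 1), on as few as 15 reads. At P10 it was at 95.2 and 80.9 in wild type and 96.5, 94.0 and 96.1 in the knockout. The smallest p at P1 belonged to Iffo1, an intermediate filament family member, with 0 and 2.5 in wild type and 9.63, 4.16 and 7.69 in the knockout (adjusted p = 0.603). The 12 nt exon of Cadps, singled out after its values were seen, was lower in all knockout libraries than in the wild-type libraries of the same age. It was at 35.4, 30.1 and 26.6 in the knockout at P1 and 27.7, 28.7 and 26.9 at P10, with differences of -9.99 points (interval -18.8 to 0.2) and -9.68 points (interval -17.7 to 0.2) that were not called.

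The change from P1 to P10 was measured in both genotypes, which share no library. In the knockout 13 of 219 microexons were called, 8 higher and 5 lower (5.94%, beside 0.678% of all events, of which 0.366% were higher and 0.312% lower). Among exons of 16 to 27 nt, 3.7% were called in the knockout. All 6 microexons called in wild type moved the same way in the knockout. Of these, 4 were called in both genotypes, those of Ryr1, Kif3a, 6330403A02Rik and the 12 nt exon of Kcnma1. With only the knockout groups fitted, the knockout calls of Ryr1 (adjusted p = 0.0724) and Kif3a (adjusted p = 0.0961) were lost. Over 215 microexons tested in both, the differences had the same sign in 166 (77.2%), and their correlation across microexons was 0.861 by Pearson's and 0.771 by Spearman's coefficient. Microexons are not independent replicates, so this is a description of these libraries. Among knockout calls, Dctn2 went from 41.8, 42.5 and 39.9 to 74.2, 72.4 and 66.5 (adjusted p = 0.0129, lost without P1 library 15 or P10 library 10 or 11, without the filter on mean PSI, or with only the groups compared in the fit). The knockout count was 8 without P1 library 15, 7 without P10 library 10 or 11, and 4 when only the knockout groups were fitted.

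**Figure D4:**
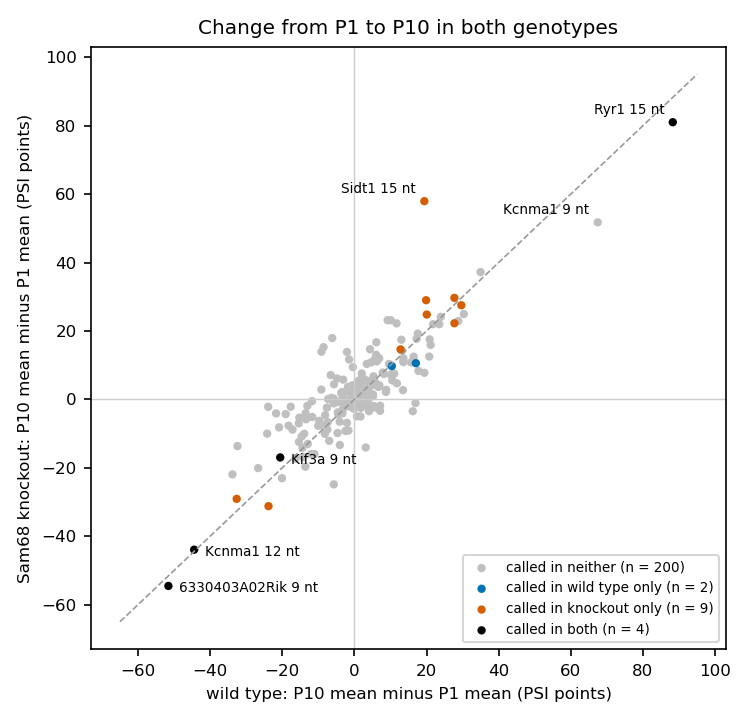
P10 mean minus P1 mean in PSI points for 215 microexons, wild type on the x axis and Sam68 knockout on the y axis, with the dashed line at equal change. The 4 microexons called in both (black) lie near the line at both ends, and Sidt1 lies above it.

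Regulators of microexons and neuronal exons were followed in expression, as a list of 30 genes with 31 table entries. Srrm4, the main activator of neuronal microexons, was not called in any comparison. It stood at 9.79 and 11.2 cRPKM in wild-type P1, 13.3 and 14.1 in P10 and 10, 13.6 and 8.77 in P30, with a P30 to P1 log2 fold change of 0.02. Its relative Srrm3 was at 9.77 and 9.56 in P1 and 13.5, 21.9 and 14.7 in P30, a log2 fold change of 0.70 that was not called. Ptbp1 was at 53.6 and 79.8 in P1, 60.9 and 69.9 in P10 and 17.2, 21.3 and 16.6 in P30, a log2 fold change of -1.79 (adjusted p = 2.7e-05), and its neuronal relative Ptbp2 changed by -0.82 (adjusted p = 0.0368).

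Between P1 and P30, 4 of the 31 entries rose and 16 fell, beside 9.66% and 15.8% of all 14063 genes tested. The 4 that rose were Rbfox1 (log2 fold change 1.44), Rbfox3 (2.14), Mbnl1 (1.31) and Mbnl2 (2.29), RNA-binding proteins of the Fox and muscleblind families. The falls included the neuronal Elavl2 (-2.58), Celf5 (-2.21), Khdrbs3 (-2.15), Nova2 (-1.53) and Khdrbs2 (-1.41). Between P10 and P30 1 rose and 10 fell (beside 5.02% and 9.73%), and between P1 and P10 2 rose, Rbfox3 and Mbnl2, and Celf5 fell (beside 2.2% higher and 1.85% lower, 4.05% in all). In the knockout 2 rose over the same days, again Rbfox3 (log2 fold change 1.84) and Mbnl2 (1.35), and 5 fell (beside 5.58% higher and 4.59% lower, 10.2% in all). In the knockout against wild type, Khdrbs1 was the 1 entry called at P1 and at P10 (beside 0.0356% and 0.00711% of all genes, with 0.0284% lower at P1). Its relative Khdrbs2 was at 14.2 and 13.8 cRPKM in wild-type P1 and 32.7, 31.5 and 39.9 in knockout P1, without overlap and without a call (log2 fold change 1.24, adjusted p = 0.536).

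**Figure D5:**
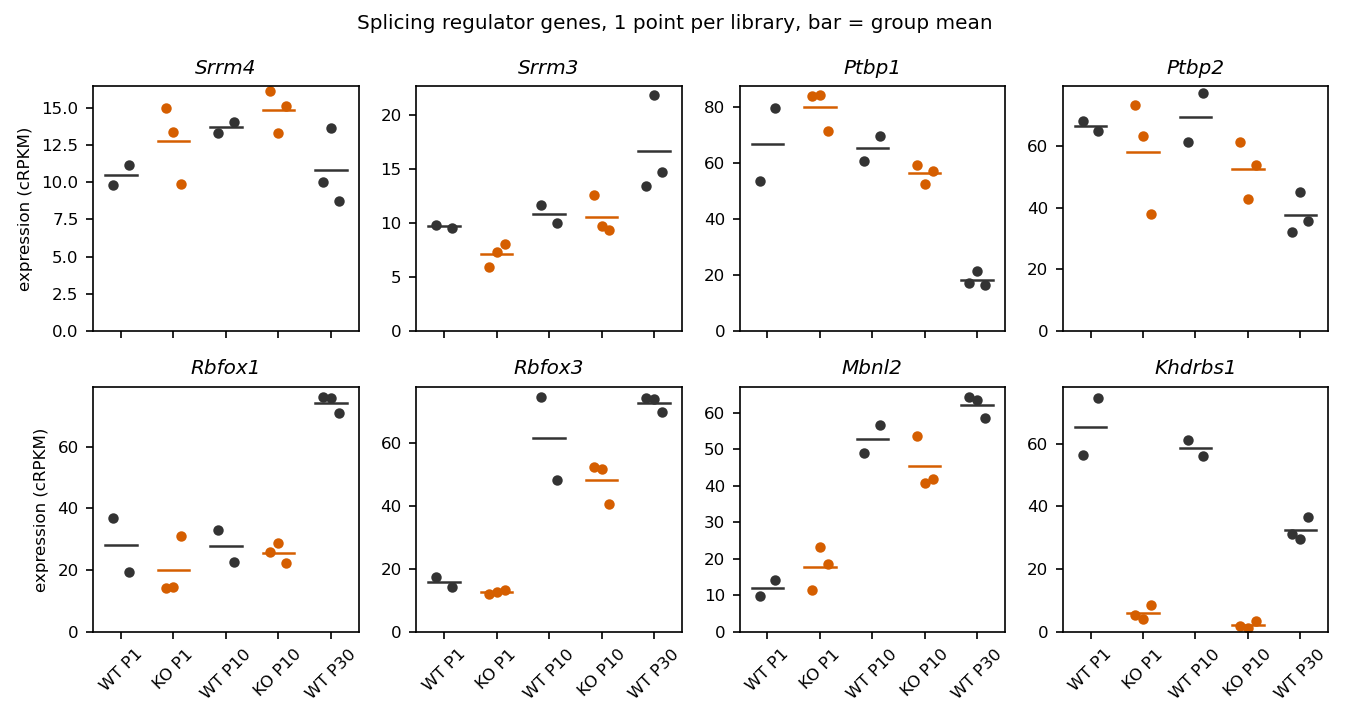
Expression (y axis, cRPKM, from 0) of 8 splicing regulator genes in each library by group, wild type in black, Sam68 knockout in orange and bars at the group means. In wild type, Srrm4 libraries at P1 lie below those at P10, and the P30 libraries overlap both. Ptbp1 is lowest at P30, Rbfox3 and Mbnl2 are higher from P10 on, and Khdrbs1 is low in all 6 knockout libraries.

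Expression of most host genes was not called as changed. Of 58 genes with a microexon called higher at P30 than at P1, 57 had an expression test, with 14 higher, 5 lower and 38 not called. Of 10 genes with one called lower, 2 were higher, 3 lower and 5 not called. Over all 199 host genes tested, 31 were higher, 40 lower and 128 not called. Among all 14063 genes tested, 9.66% were higher and 15.8% lower, 25.4% in all.

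Markers of cell types moved with age beside these results, and their part in the change of inclusion was not tested. The summed level of 5 mature granule cell markers was 40.6 to 44.7 cRPKM in wild-type P1, 161 to 218 in P10 and 978 to 1012 in P30, and that of 5 granule precursor markers 79.2 to 173, 138 to 192 and 5.28 to 8.53. The 5 Purkinje cell markers went from 132 to 230 in P1 to 1338 to 1614 in P30. The 5 oligodendrocyte markers went from 40.2 to 62.4 in P1 to 3372 to 4202 in P30. The 5 general neuron markers were at 1594 to 2178 in P1, 1322 to 1495 in P10 and 2225 to 2491 in P30. The 5 astrocyte and Bergmann glia markers were at 338 to 446 in P1, 974 to 1137 in P10 and 717 to 857 in P30. The 3 choroid plexus markers ranged from 2.58 to 1102 within wild-type P30, and Folr1 was at 0 in wild-type P1. At P1, knockout libraries had 256 to 364 for the Purkinje markers and 4.28 to 32.8 for the oligodendrocyte markers.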

How the data were processed

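Per the labels' protocols, total RNA went into stranded mRNA libraries by a modified kit protocol. Per the submitters' processing notes, reads went through FastQC and Trimmomatic and the build was mm9. The aligner is not given in the sources used here, nor is the splicing program. The authors deposited PSI as a percent per event, with corrected reads for and against inclusion, and gene expression as cRPKM, a mappability-corrected RPKM. PSI matched the share of these reads within 0.045 points for the microexons.

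Splicing was tested with limma 3.58.1 in R 4.3.3 on log2 odds with 0.5 reads added to each side, with all 5 groups fitted together, which left 8 residual degrees of freedom, and the prior variance following the mean log2 odds. A library counted for an event from 10 reads on, each compared group needed 2 such libraries, and groups of alternative sites counted once. P-values were adjusted by Benjamini-Hochberg over all tested events of a comparison. Expression was tested with limma on log2(cRPKM + 1) for genes with a group mean of at least 1 cRPKM, so fold changes are on that scale. The fits were tested on simulated data, where the splicing fit recovered few of the smaller changes put in and most of the largest. The changes were put in at P30 only, and in far fewer events than were called between P1 and P30 here. Those recovery rates therefore do not carry over to the real comparisons. Limits for a count of 0 (3 reads) cover counting error only.

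The members, gene lists and tests were chosen with earlier results of these data known. Named are the largest calls of each comparison, members of the listed genes, members with the smallest p, and called regulators. Microexons named for their role outside that rule (such as Cltc) were chosen after their values were seen. Alternatives are given in the closing section. Some results are not reported here.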

Additional observations from a re-analysis of the deposited data

How the results depend on the processing

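No call of a named microexon changed direction under any alternative. No paired analysis was possible because the groups share no library numbers. With the prior variance following the mean reads, an alternative chosen after seeing the data, 14 microexons were called between wild-type P1 and P10 (6 in the reported fit) and 20 between knockout P1 and P10 (13). At least 20 reads gave 11 calls and weights by reads 10 between wild-type P1 and P10. Without the filter on mean PSI there were 22 calls between P10 and P30 (34) and 8 in the knockout (13). Fitting only the groups compared gave 0 calls between wild-type P1 and P10, 20 between P10 and P30 and 4 in the knockout. It also gave 0 regulators for knockout against wild type at P1 (1), 19 between P10 and P30 (11) and 3 in the knockout between ages (7).

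Leaving out each library in turn gave 0 to 1 microexons called for knockout against wild type at P1, 0 to 5 between wild-type P1 and P10, 12 to 22 between P10 and P30, 44 to 67 between P1 and P30, and 7 to 19 in the knockout between ages. It gave 1 to 2 regulators for the genotypes at P1 and 3 to 8 in the knockout between ages. With 1 library left in an arm, that library is assumed to vary like the other groups.

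The median PSI of microexons with 10 reads in all 13 libraries was 13.5 in knockout P1 (12.1), 16.8 in knockout P10 (15.1) and 25.2 in wild-type P30 (22.3). With at least 20 reads it was 14.6 in wild-type P1, 13.2 in knockout P1, 14.9 in wild-type P10 (17.3), 16.5 in knockout P10 and 25.1 in wild-type P30. Wild type and knockout then changed order at P10, and the P1 and P10 medians of wild type nearly met. The cause of these changes was not tested. With 2 libraries in wild-type P1 and P10, differences of a size short of the largest ones were often not detectable after adjustment over all events, so a microexon that was not called may still differ.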
